A study of Mus musculus with 4 samples.

Results

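Voltage-gated sodium, calcium and HCN channels and the potassium channels were followed through the main olfactory epithelium, the sheet of sensory tissue in the nose that holds the odour-sensing neurons. Members were all genes whose symbol starts with Kcn (potassium channels and their partners), Scn and a digit (sodium channels), Cacna1, Cacna2d, Cacnb and a digit or Cacng (calcium channel subunits), or Hcn and a digit (hyperpolarisation-activated channels). The rule took 143 of the 55511 genes counted. They comprise 93 potassium channel genes, 14 sodium channel genes, 26 calcium channel genes and 4 Hcn genes, with 6 further transcripts that share a name with a channel gene: the antisense or host transcripts Kcnab3os, Kcnd3os, Kcnmb4os1, Kcnmb4os2 and Kcnq1ot1, and the regulator Kcnrg. The rule rests on symbols and uses no measured value, but it was chosen with earlier results of these data known.

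The tissue came from 4 male C57BL/6 mice (C57BL/6J in the study's methods), 8 weeks old, and the labels name no treatment, so that all samples form 1 group and the mouse is the replicate (n = 4). Cells freed with papain were sorted for nuclear staining with Hoechst and for exclusion of DRAQ7, a dye that enters dead cells, and 1 library per mouse was made with a droplet method that reads the 3′ end of each transcript and counts molecules by a unique identifier (UMI). Levels are given as UMIs per 10000 UMIs of the same cell type, cluster or population in the same mouse. A transcript is counted once whatever its length on this scale, so levels of different genes are compared as captured 3′ ends, without a correction for length.

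An olfactory sensory neuron (OSN) turns odour binding into current through a cyclic nucleotide-gated channel and a chloride channel in its cilia. Voltage-gated sodium channels then carry the action potential, potassium channels repolarise the membrane, calcium channels open in the soma and the axon terminal, and HCN channels pass an inward current after hyperpolarisation. Each family has pore-forming subunits, which make the channel, and auxiliary subunits, which set its trafficking and gating. Each neuron expresses 1 odorant receptor gene, and neurons with the same receptor are called a population here. The neurons arise from globose basal cells (GBC) through immediate neuronal precursors (INP) and immature neurons (iOSN1, iOSN2) to mature neurons (mOSN), beside horizontal basal cells (HBC1, HBC2), sustentacular support cells (Sus) and microvillar cells (Mv1, Mv2).

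The libraries held 23157467 to 32382702 UMIs, and the mOSN type 11540104 to 16823095. The 10 deposited cell types held 15859 cells, from 124 in Mv1 to 10519 in mOSN. Defining markers matched the labels of most types. Olfactory marker protein (Omp), Cnga2, Gng13, Adcy3 and Stoml3 had their highest level in mOSN, the ionocyte-type genes Ascl3, Foxi1, Cftr and Coch in Mv2, and the tuft-cell genes Trpm5, Pou2f3, Chat and Avil in Mv1. The HBC2 type and the GBC type were not uniform. HBC2 held the basal markers Krt5 and Trp63 together with Cyp2g1 and Muc2 of the sustentacular list, of which Muc2 was at 2.49 in HBC2 and 0.00400 in Sus, and GBC held the glial gene Fabp7 and the ionocyte genes Ascl3 and Foxi1. The values that these mixtures touch are given beside the genes concerned. Of 21755 barcode sequences, 54 occurred in more than 1 mouse.

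Among the members, 128 had at least 1 UMI in the retained cells and 15 had none. The 15 without a UMI were Cacna1i, Cacna1s, Cacng6, Kcna10, Kcnd3os, Kcne1, Kcng3, Kcnj12, Kcnj6, Kcnk15, Kcnmb4os1, Kcnt2, Kcnv2, Scn10a and Scn4a. In 69 members the mean reached 0.1 UMIs per 10000 in at least 1 cell type, and in the other 74 it did not, the nearest being Kcnip3 at 0.0998 in GBC. In mOSN 40 members reached this level, the lowest of them Cacna1a at 0.103, with Kcnmb4os2 just below at 0.0915. They included 5 of 10 pore-forming and 2 of 4 auxiliary sodium channel genes, 4 of 10 Cacna1, 1 of 4 Cacna2d, 2 of 4 Cacnb and 1 of 8 Cacng genes. Among potassium channels they included Kcnc4, 3 of 8 Kcna, 1 of 4 Kcng, 2 of 8 Kcnh, 1 of 15 Kcnj, 1 of 14 Kcnk, 2 of 4 Kcnn, 1 of 5 Kcnq and 1 of 3 Kcns genes, Kcnma1, 3 of 4 Kcnmb, 1 of 3 Kcnab and 1 of 4 Kcnip genes. No gene of the Kcnd, Kcne, Kcnf, Kcnt, Kcnu or Kcnv families reached it, and Kcnq1ot1 did.

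Promoter sequence is shown for 4 members that stand for the patterns described below: Scn9a, the most abundant and early in development, Kcnc4 and Scn4b, which appeared late, and Kcnmb3, which differed most between receptor populations. Each run is the 250 bases before the annotated start, from RefSeq on GRCm38.p6, 5′ to 3′ on the strand of the gene. The gene coordinates given elsewhere come from another annotation, in which Kcnc4 starts at 107459552, Kcnmb3 at 32492231 and Scn4b at 45138395. By those starts the runs of Kcnc4 and Kcnmb3 lie wholly, and that of Scn4b mostly, inside the gene. Capitals mark CCCNNGGG, the palindromic core of the sites bound by the Ebf (olfactory neuron-specific) factors, which reads the same on both strands.
Scn9a, chr2:66634963-66635212, strand -: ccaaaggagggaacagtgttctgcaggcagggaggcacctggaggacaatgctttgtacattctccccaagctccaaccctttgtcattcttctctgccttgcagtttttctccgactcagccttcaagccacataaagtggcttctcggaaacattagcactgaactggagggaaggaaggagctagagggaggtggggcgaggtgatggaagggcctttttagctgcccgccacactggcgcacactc
Kcnc4, chr3:107458899-107459148, strand -: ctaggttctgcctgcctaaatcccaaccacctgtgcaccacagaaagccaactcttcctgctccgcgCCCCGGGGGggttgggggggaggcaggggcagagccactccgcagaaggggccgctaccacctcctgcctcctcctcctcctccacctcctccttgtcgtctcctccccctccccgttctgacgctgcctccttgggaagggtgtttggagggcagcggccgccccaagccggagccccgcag
Scn4b, chr9:45138374-45138623, strand +: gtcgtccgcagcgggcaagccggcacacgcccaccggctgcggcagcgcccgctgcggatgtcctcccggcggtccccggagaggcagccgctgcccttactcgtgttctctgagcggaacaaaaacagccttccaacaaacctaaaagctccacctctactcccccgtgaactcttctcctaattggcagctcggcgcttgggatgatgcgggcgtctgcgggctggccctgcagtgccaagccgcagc
Kcnmb3, chr3:32491970-32492219, strand -: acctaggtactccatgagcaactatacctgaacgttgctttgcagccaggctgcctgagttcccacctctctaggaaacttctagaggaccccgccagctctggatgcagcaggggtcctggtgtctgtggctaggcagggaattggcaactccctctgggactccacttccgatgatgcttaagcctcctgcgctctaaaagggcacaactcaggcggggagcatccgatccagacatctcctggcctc

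The core occurred in the Kcnc4 window, in 2 overlapping placements, and not in the windows of Scn9a, Scn4b or Kcnmb3. It was present in 22 of the 140 member windows that matched by symbol (15.7%, 104 genes), in 7 of the 38 windows of members at 0.1 or more in mOSN (18.4%) and in 3882 of all 32851 windows (11.8%). Member windows had a median of 58.2% G and C and 8 CpG dinucleotides, against 52.4% and 6 over all windows. The Kcnc4 and Scn4b windows held 68.0% and 66.0% G and C, and those of Scn9a and Kcnmb3 54.4% and 57.2%. A match describes the letters only.

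A sodium channel gene had the highest level of any member in mature neurons. Scn9a (chr2:66480080-66634962 on GRCm38), which encodes a pore-forming subunit best known from pain-sensing neurons, had 7.55, 8.18, 8.32 and 7.56 UMIs per 10000 in mice 1 to 4, a mean of 7.90 ± 0.402 (SD, n = 4). The 2 auxiliary genes Scn3b and Scn4b followed at 2.13 ± 0.190 and 1.46 ± 0.229. Scn4b had 1.13, 1.63, 1.60 and 1.497 in mice 1 to 4, with mouse 1 the lowest. The other pore-forming genes lay well below Scn9a in every mouse, with Scn8a at 0.593 ± 0.0406, Scn3a at 0.370 ± 0.0290 and Scn2a at 0.134 ± 0.0179. The beta subunit gene Scn2b was nearly absent there, at 7.81e-04 ± 7.19e-04. Together the 14 sodium channel genes summed to 12.0, 13.8, 13.9 and 12.9 in mice 1 to 4.

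Among potassium channels, Kcnc4 (chr3:107438303-107459552), a fast-inactivating voltage-gated channel of the Kv3 group, led with 4.40, 5.19, 4.89 and 5.60 UMIs per 10000 in mice 1 to 4 (5.02 ± 0.507). Its relative Kcnc1 was far lower, at 0.0116 ± 0.00356. Kcnma1, the large-conductance calcium-activated channel, had 1.67, 2.02, 2.04 and 1.88 and was accompanied by 3 of its beta subunit genes, Kcnmb2 at 1.47 ± 0.0892, Kcnmb3 at 0.843 ± 0.110 and Kcnmb4 at 0.117 ± 0.00843. Kcns3 and Kcng1, which encode silent subunits that form no channel by themselves, stood at 1.19 ± 0.0508 and 0.547 ± 0.0847. Of the Shaker genes, Kcna2 was at 1.78 ± 0.192, Kcna5 at 1.20 ± 0.112 and Kcna6 at 0.735 ± 0.0718, with their cytoplasmic partner Kcnab2 at 1.25 ± 0.166. The SDs of Kcna5, Kcnab2, Kcns3 and Hcn2 overlapped, so the order of these 4 genes is not resolved.

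The ether-a-go-go genes Kcnh4 and Kcnh3 were at 0.966 ± 0.0648 and 0.951 ± 0.0804, and the background (leak) channel Kcnk10 at 0.905 ± 0.0832. The inward rectifier Kcnj2 stood at 0.485 ± 0.0575 and was the only 1 of 15 Kcnj genes to reach 0.1 in mOSN. The small-conductance calcium-activated channel Kcnn2 was at 0.483 ± 0.0110. Several genes familiar from central neurons were scarce. Kcnq3, a subunit of slow voltage-gated potassium channels, had 0.00578 ± 0.00233, and Kcnd2, an A-type channel, had no UMI in 10519 mature neurons, which allows a level of up to 5.50e-04 UMIs per 10000 (3 counts over the 4 mice, counting error only). Kcnip3 was at 2.97e-04 ± 5.94e-04 and Kcnh2 at 0.0889 ± 0.00767.

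The highest calcium channel transcripts encoded auxiliary subunits. Cacnb3, a cytoplasmic beta subunit, had 4.16, 4.23, 4.12 and 4.12 UMIs per 10000 in mice 1 to 4 and Cacna2d1, the extracellular alpha2delta subunit bound by gabapentin, 1.33, 1.55, 1.41 and 1.503. Among the pores, the T-type gene Cacna1h had the highest level at 1.14 ± 0.132, above the L-type Cacna1d at 0.606 ± 0.1002 and the N-type Cacna1b at 0.596 ± 0.0553, which overlapped each other. The P/Q-type Cacna1a was at 0.103 ± 0.0130 and the L-type Cacna1c at 0.0331 ± 0.00868. Cacnb4, Cacna2d3 and Cacna2d2 had 0.0654 ± 0.00697, 0.00712 ± 0.00234 and 0. Hcn2 led its family at 1.23 ± 0.146, with Hcn4 at 0.278 ± 0.0342 and Hcn3 at 0.00375 ± 0.00258.

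All 143 members together summed to 43.4, 50.3, 49.2 and 48.3 UMIs per 10000 in the mOSN of mice 1 to 4, 0.478% of the mature neurons' UMIs. The sum was 37.5 ± 2.21 in iOSN2, 25.4 ± 1.83 in iOSN1, 16.1 ± 0.932 in INP and 9.33 ± 1.19 in GBC, and the 4 mice of each stage lay above all 4 of the stage before. Outside the neuronal lineage it was highest in Mv2, at 18.1 ± 0.921, and between 10.3 and 13.7 in HBC1, HBC2, Sus and Mv1. Cell types were defined by clustering these same counts, so differences between types and between clusters of neurons are described without a test.

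Members differed in the stage at which they appeared during maturation. Of 45 members at 0.1 or more in iOSN1 or mOSN, 21 were at least 2-fold higher in mOSN than in iOSN1 in each of the 4 mice (46.7%), and 7 were at least 2-fold lower (15.6%). Over all 9451 non-receptor genes measured in the same way the shares were 8.84% and 11.5%. The median ratio of mOSN to iOSN1 was 2.04 over the 45 members and 0.913 over all of these genes.

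**Figure D1:**
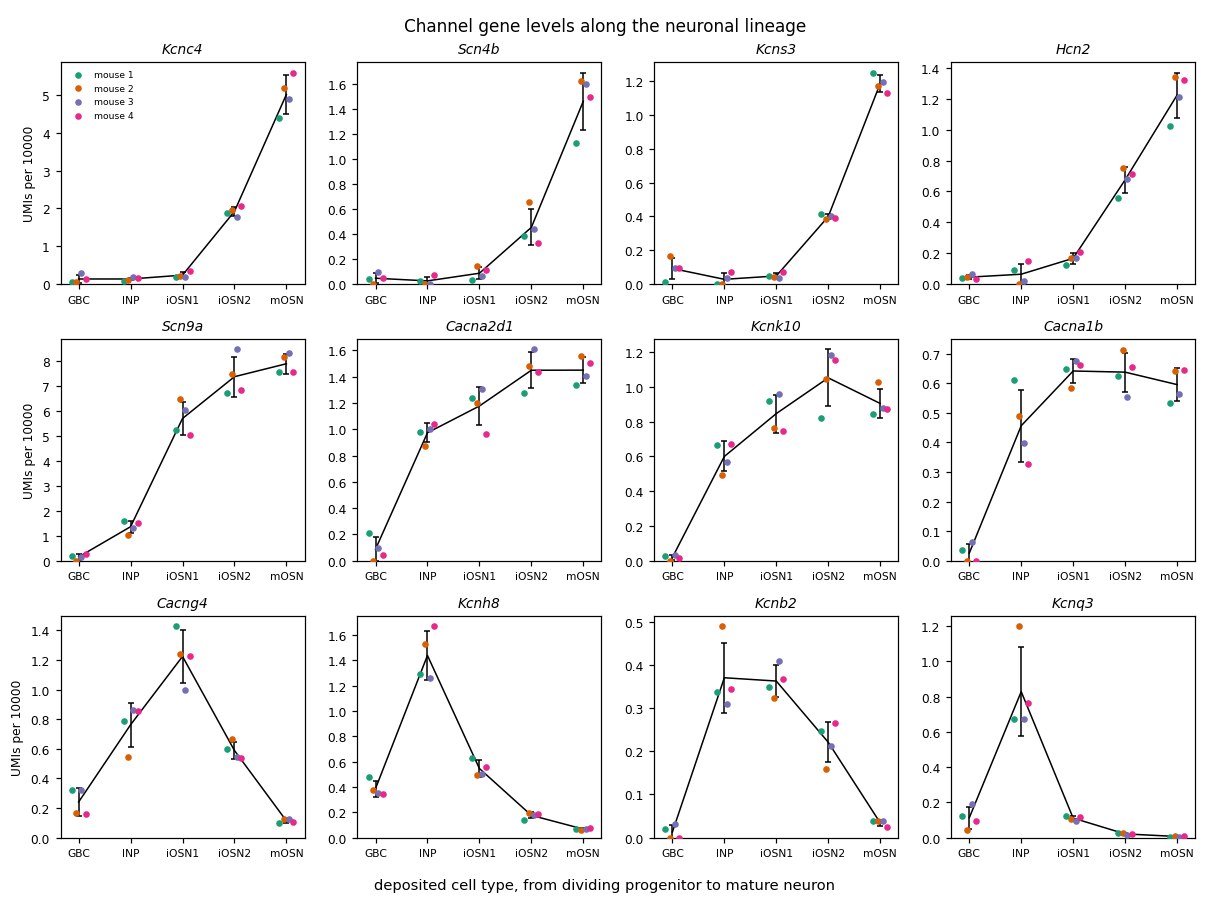
Level (UMIs per 10000) of 12 channel genes in 5 cell types of the neuronal lineage, with 1 point per mouse, the mean as a line and the SD as bars. The top row (Kcnc4, Scn4b, Kcns3 and Hcn2) is 7.39 to 25.4 times as high in mOSN as in iOSN1, the middle row (Scn9a, Cacna2d1, Kcnk10 and Cacna1b) 0.928 to 1.38 times, and the bottom row (Cacng4, Kcnh8, Kcnb2 and Kcnq3) has its highest mean in INP or iOSN1.

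Late genes were led by the potassium channels. Kcnc4 went from 0.193, 0.219, 0.179 and 0.334 in the iOSN1 of mice 1 to 4 to 1.92 ± 0.114 in iOSN2 and 5.02 ± 0.507 in mOSN, a ratio of mOSN to iOSN1 of 16.8 to 27.3 in single mice. The silent subunit genes had the largest ratios, Kcng1 going from 0.0149 (9 UMIs in all) to 0.547 and Kcns3 from 0.0467 ± 0.0159 to 1.19 ± 0.0508. Scn4b was 17.2 times as high in mOSN as in iOSN1, Kcnj2 11.7 times, Hcn2 7.39 times and Kcna6 7.26 times. Kcnmb3, Kcna5, Kcnab2, Kcnma1, Cacnb2, Cacnb3 and Kcnip4 had ratios between 3.26 and 6.09, and Kcna2, Scn3b, Scn8a and Kcnn2 between 2.65 and 2.83. Kcnq1, at 0.106 ± 0.0227 in mOSN, was also among the 21.

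Other members were present before maturity. Scn9a already stood at 1.59, 1.04, 1.31 and 1.51 in the INP of mice 1 to 4 and 5.71 ± 0.676 in iOSN1, and its ratio of mOSN to iOSN1 was 1.26 to 1.49 in single mice. Among its beta partners, Scn3b was at 0.751 ± 0.0629 and Scn4b at 0.0849 ± 0.0494 in iOSN1. Cacna2d1, Cacna1b, Kcnk10, Cacna1d and Kcnn1 had ratios between 0.928 and 1.34, and Cacna1h reached 1.76. Hcn4 had a ratio of 1.39, below that of Hcn2 in each of the 4 mice.

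A further group peaked in precursors or young neurons. Cacng4, an auxiliary subunit better known as a partner of AMPA receptors, had 1.43, 1.24, 0.994 and 1.23 in the iOSN1 of mice 1 to 4 and 0.0957, 0.127, 0.123 and 0.104 in their mOSN. Kcnh8 peaked in INP at 1.44 ± 0.195, with 0.546 ± 0.0643 in iOSN1 and 0.0665 ± 0.00486 in mOSN. Kcnq3 had 0.675, 1.20, 0.674 and 0.764 in the INP of mice 1 to 4 and 0.110 ± 0.0137 in iOSN1. Kcnb2 was at 0.371 ± 0.0810 in INP and 0.0343 ± 0.00721 in mOSN. Kcnh7, Kcnmb4 and its antisense transcript Kcnmb4os2 completed the 7 lower members. Kcns2 was highest in INP among the 10 types, with 0.349, 0.600, 0.207 and 0.309 in mice 1 to 4 against 0.00166 in iOSN1, the next highest. The inward rectifier Kcnj3 and the calcium-binding partner Kcnip2 were also highest in INP, at 0.327 ± 0.0395 and 0.221 ± 0.114. Kcnq1ot1, a long antisense RNA of an imprinted region and not a channel, had 3.09 ± 0.561 in GBC, 2.81 ± 0.158 in iOSN1 and 1.23 ± 0.149 in mOSN.

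Potassium channels also led in several non-neuronal types. Mv2, the type with ionocyte markers, was led by Kcnk1, a background channel, with 4.78, 4.24, 4.09 and 5.07 UMIs per 10000 in mice 1 to 4 against 0.00261 ± 5.76e-04 in mOSN. Kcnma1 was higher in Mv2 than in mature neurons, at 3.17, 3.56, 3.74 and 3.55 against 1.67, 2.02, 2.04 and 1.88 in mice 1 to 4, with no overlap. Mv2 also had the highest level of Scn3a (1.08 ± 0.0815), Kcnk5 (0.563 ± 0.0608), Kcnh7 (0.457 ± 0.0572) and Kcnh2 (0.363 ± 0.0251). Of the beta subunit genes of Kcnma1, Kcnmb3 had 0.112 ± 0.0214 there and Kcnmb2 and Kcnmb4 0.0182 ± 0.0187 and 0.0123 ± 0.00511.

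**Figure D2:**
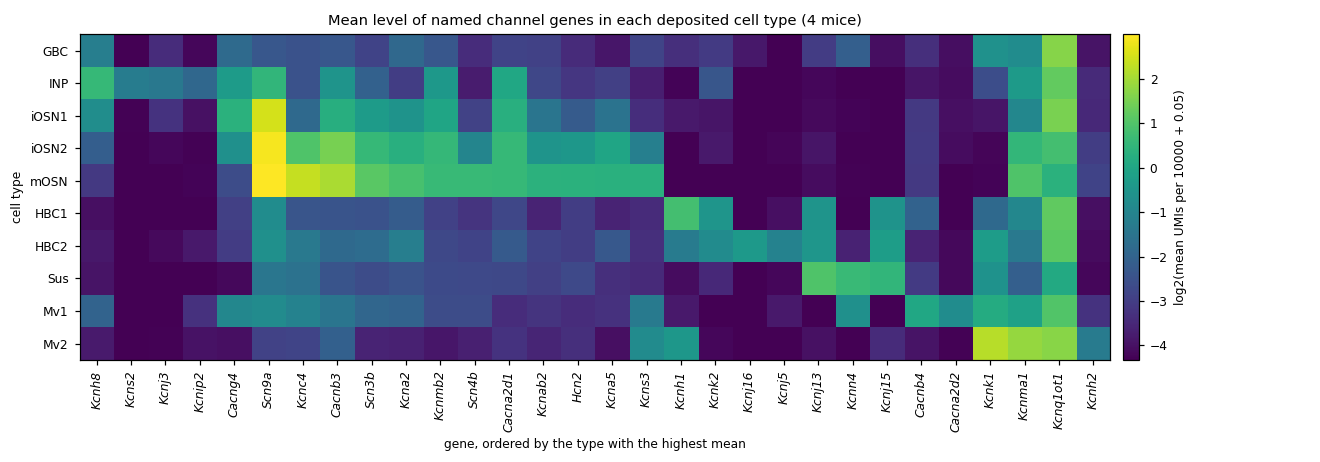
Mean level over 4 mice of named channel genes (columns) in the 10 deposited cell types (rows), coloured by log2 of UMIs per 10000 with 0.05 added. Scn9a and Cacnb3 mark the rows from INP to mOSN, Kcnc4 those of iOSN2 and mOSN, Kcnk1 and Kcnma1 the Mv2 row, and Kcnj13 and Kcnn4 the Sus row.

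Mv1, the type with tuft-cell markers, was led apart from Kcnq1ot1 by Kcnk1 (1.07 ± 0.553), the calcium channel beta subunit Cacnb4 (0.975 ± 0.395) and Kcnq3 (0.959 ± 0.380). Cacna2d2 had 0.727, 0.362, 0.830 and 0.237 in mice 1 to 4 and no more than 0.0121 in any other type. Only 20 to 54 Mv1 cells per mouse underlie these values. Among the leading genes of sustentacular cells were Kcnj13 (1.92 ± 0.303), an inward rectifier of transporting epithelia, Kcnn4 (1.501 ± 0.0998), a calcium-activated channel, and Kcnj15 (1.36 ± 0.173). No pore-forming sodium channel gene was above Scn9a there, at 0.315 ± 0.146. Kcnd2 was highest in Sus, at 0.219 ± 0.0493. The Sus type also held Rgs5 of the pericyte list at 217, with Pdgfrb of the same list at 0, and the part of such cells in these levels was not tested. HBC1 was led, apart from Kcnq1ot1, by Kcnh1 with 1.49, 2.02, 1.81 and 1.41 and Kcnk2 with 0.608, 0.577, 0.512 and 0.894 in mice 1 to 4.

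Transcripts of mature neurons were counted in the other types. Omp stood at 4.45% of its mOSN level in HBC1, 5.87% in HBC2, 4.91% in Sus, 6.06% in Mv1 and 1.14% in Mv2. Scn9a had 6.78%, 7.37%, 3.98%, 6.63% and 1.07% of its mOSN level in the same types, and Kcnc4 2.78%, 6.75%, 5.73%, 8.39% and 1.79%. The part of free RNA in these levels was not tested. Kcns3 had larger shares, with 44.3% of its mOSN level in Mv2 and 29.6% in Mv1.

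Members also differed between cells of the 2 mixed types. In GBC, Kcna1 had 0.189, 0.166, 0.541 and 0.328 UMIs per 10000 in mice 1 to 4 and Scn7a 0.0754, 0.331, 0.159 and 0.234, each above its level in every other type. Of the 202 GBC cells, 11 held a UMI of Fabp7, which marks glia. They were 11 of the 13 cells with Kcna1, and 7 of the 8 cells with Scn7a were among them. Kcnma1 in GBC followed another split, since 51 cells with a UMI of Ascl3 or Foxi1 had 1.82, 2.53, 1.07 and 1.32 in mice 1 to 4 and the other 151 cells 0.0951, 0.0616, 0.125 and 0.171. Kcnk1 had 0.773, 1.26, 1.60 and 1.61 and 0.369, 0.246, 0.376 and 0.385 in the same cells.

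In HBC2, 2 inward rectifier genes had opposite relations to Cyp2g1 and Muc2. Kcnj16 had 0.790, 0.358, 1.07 and 0.673 and Kcnj5 0.188, 0.689, 0.304 and 0.501 in mice 1 to 4, and both were at or below 0.0207 in every other type. None of the 64 cells with Kcnj5 held a UMI of Krt5 or Trp63, whereas 55 held Cyp2g1 and 52 held Muc2. Of the 161 cells with Kcnj16, 5 held Cyp2g1 and 0 held Muc2. Krt5 was found in 80.7% of them and in 69.5% of the HBC2 cells without Kcnj16. The 106 cells with a UMI of Cyp2g1 or Muc2 had 0.789, 1.75, 1.10 and 1.22 for Kcnj5 in mice 1 to 4 and the other 438 cells 0.0122, 0, 0.0689 and 0.121. Kcnk2, a mechanically gated background channel, sorted the same way, with 2.31, 1.40, 1.90 and 1.56 against 0.0243, 0, 0.0295 and 0.0202. Kcnj16 was the reverse, at 0.166, 0, 0.0334 and 0.0381 against 0.973, 0.589, 1.38 and 1.01. Kcnj13 and Kcnj15 were found on both sides of the split. These splits were chosen after the values were seen.

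The deposited clusters of mature neurons, which were made without receptor genes and named for a marker and for the dorsal (D.) or ventral (V.) side, differed in several subunits. Kcnmb3 had 1.72, 1.33, 1.88 and 1.68 in mice 1 to 4 in the Dlg2+ V. cluster and 1.43 ± 0.208 in Dlg2+ D., but 0.0317, 0.0319, 0.0593 and 0.0661 in Calb2+ V. and 0.0998 ± 0.0447 in Calb2+ D. The ratio of the highest to the lowest cluster was 35.0. Kcng1 had the same order, with 1.04 ± 0.196 in Dlg2+ V. and 0.0349 ± 0.0237 in Calb2+ V., and Scn4b went from 1.99 ± 0.230 to 0.494 ± 0.109. Scn3b was also lowest in Calb2+ V., at 0.994 ± 0.0397, and highest in Dlg2+ D., at 3.62 ± 0.349.

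The opposite order was seen in other genes. Kcnk10 had 0.317, 0.534, 0.235 and 0.265 in Dlg2+ V. and 1.38, 1.75, 1.62 and 1.42 in Calb2+ D. in mice 1 to 4. Scn9a went from 5.84 ± 0.499 in Dlg2+ V. to 10.3 ± 0.469 in Calb2+ D., Cacnb3 from 2.93 ± 0.110 to 5.56 ± 0.203 and Cacna1b from 0.319 ± 0.0679 in Dlg2+ V. to 1.06 ± 0.171 in Calb2+ V. Within both the dorsal and the ventral side, the ranges of the 4 mice in the Calb2+ and Dlg2+ clusters did not overlap for Kcnmb3, Kcng1, Scn4b, Scn3b, Kcnk10, Scn9a, Cacnb3 or Cacna1b.

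**Figure D3:**
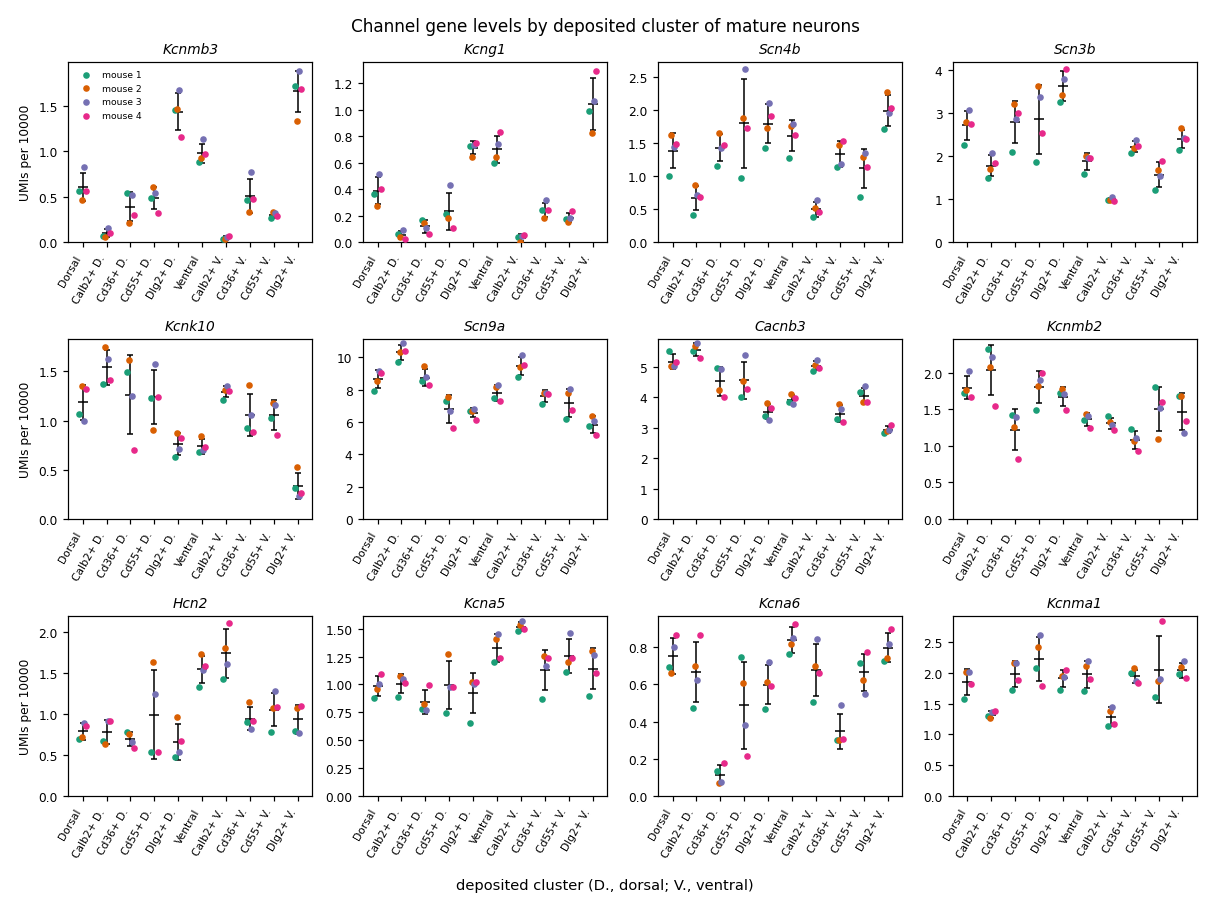
Level (UMIs per 10000) of 12 channel genes in the 10 deposited clusters of mature neurons, with 1 point per mouse, a dash at the mean and the SD as bars. Kcnmb3, Kcng1 and Scn4b are low in both Calb2+ clusters and high in both Dlg2+ clusters, Kcnk10, Scn9a and Cacnb3 show the reverse, and the mean of Hcn2 is higher in the Ventral and Calb2+ V. clusters than in any dorsal one.

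Side of the epithelium marked further members. Averaged over the 5 clusters of a side in each mouse, Hcn2 was at 1.24 ± 0.151 on the ventral and 0.783 ± 0.139 on the dorsal side, and Kcna5 at 1.27 ± 0.120 and 0.950 ± 0.111. Scn3b was higher dorsally, at 2.75 ± 0.378 against 1.81 ± 0.146, as were Cacnb3, Kcnmb2, Kcnk10, Kcns3 and Kcnip4, with no overlap between the sides over the 4 mice. Among low-level members, Cacng4, Kcna1, Kcnh6 and Cacna1a were higher ventrally with no overlap between the sides, for example Cacna1a at 0.101 ± 0.00993 against 0.0326 ± 0.0143. Kcna6 was lowest in Cd36+ D., at 0.114 ± 0.0509, and highest in Ventral, at 0.840 ± 0.0686. Kcnb2 was highest in Calb2+ D. at 0.113 ± 0.0876 with 0 UMIs in Dlg2+ V., where 3 UMIs would be 0.00698, and its level in Calb2+ D. was 0.0730 without mouse 3. Kcnn3 was highest in Cd36+ D. at 0.139 ± 0.0642, and Kcnh8 in Dlg2+ V. at 0.109 ± 0.0293. Kcnma1 varied less, from 1.29 ± 0.157 in Calb2+ V. to 2.22 ± 0.365 in Cd55+ D.

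Receptor populations were compared with edgeR's quasi-likelihood F test on UMI sums per population and mouse, with the mouse as a block and Benjamini-Hochberg adjustment over all genes tested. The 98 populations of at least 20 neurons with at least 3 in each mouse held 3267 neurons, and 24 lay on the dorsal and 74 on the ventral side by their Nqo1 and Nfix counts. Among 1979 genes that passed the filter on low counts, 52.0% differed among populations. The filter left 19 members, of which 16 differed (84.2%), Kcnma1 (F = 1.15, adjusted p = 0.255 by edgeR) and Cacna1h being among the 3 that did not pass. The other 124 members were below the filter. A member passes it through the populations where it is high, so abundance alone does not decide. Kcnh3, at 0.951 in mOSN, was below the filter, while Kcnk10 at 0.905 and Kcnmb3 at 0.843 passed. The share of members called and their median F therefore rest in part on members admitted because they vary. All genes tested passed the same filter. The median F was 1.88 over the 19 members and 1.36 over all genes tested. Without the filter 65 members could be tested and 26 differed (40.0%), against 14.1% of 13845 genes.

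Kcnmb3, a beta subunit that modulates the calcium-activated channel Kcnma1, differed most (F = 9.41, adjusted p = 1.14e-69 by edgeR). In the fit without the filter its F was 9.62 (adjusted p = 2.16e-134 by edgeR). The median population had 0.628 UMIs per 10000, 23 populations had at least 2 times and 27 no more than 0.5 times that, and 6 had no UMI. Neurons with Olfr166 had 2.83, 2.27, 4.66 and 2.18 in mice 1 to 4, and those with Olfr827 0 in every mouse, where 3 UMIs over the 4 mice would be 0.185. Every mouse of Olfr166 lay above every mouse of Olfr827, but these populations were picked as ends of the order from the same values. Without mouse 2, 3 or 4 another population ranked first. Olfr741 and Olfr740 followed at 2.85 ± 1.16 and 2.59 ± 1.73. With counts pooled over the mice in all 134 populations of at least 20 neurons, Olfr741 led at 3.15, before Olfr166 at 2.80. Kcnma1 itself ranged from 0.728 to 2.85 and Kcnmb2 from 0.209 to 2.87 (F = 2.41, adjusted p = 1.64e-09 by edgeR).

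**Figure D4:**
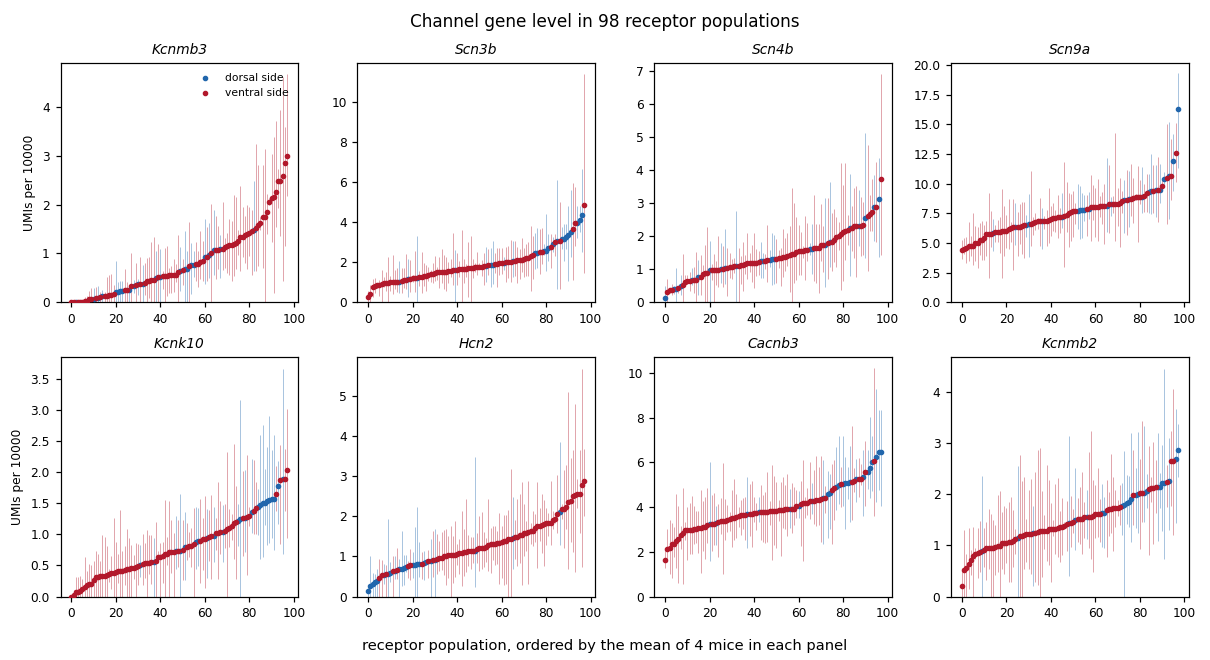
Level (UMIs per 10000) of the 8 channel genes with the largest F in each of 98 receptor populations, ordered by level within each panel, with the mean of 4 mice as a point, their range as a line and the side of the epithelium as colour. Kcnmb3 runs from 0 to 2.98, Scn9a from 4.40 to 16.3, and dorsal populations gather at the high end for Scn3b, Kcnk10 and Cacnb3.

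Among sodium channel subunits, Scn9a was highest in Olfr972, with 11.3, 16.1, 18.6 and 19.3 in mice 1 to 4, and lowest in Olfr1326-ps1, with 4.16, 3.63, 5.24 and 4.59 (F = 4.06, adjusted p = 1.35e-23 by edgeR). Scn4b was lowest in Olfr972, the population that led for Scn9a, at 0.121 ± 0.241 with 1 UMI in all, and highest in Olfr60, with 1.43, 2.57, 6.90 and 4.02 (F = 4.48, adjusted p = 7.38e-28 by edgeR). Scn3b was highest in Olfr15, with 3.58, 11.4, 1.47 and 2.94 in mice 1 to 4 and mouse 2, with 3 neurons, far above the others, followed by Olfr553 at 4.35 ± 1.70, and lowest in Olfr1252 at 0.274 ± 0.317 (F = 5.12, adjusted p = 8.34e-33 by edgeR). Without mouse 2 the mean of Olfr15 was 2.66, the 17th highest. The median dorsal population had 2.56 Scn3b UMIs per 10000 and the median ventral one 1.63.

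Hcn2 (F = 3.61, adjusted p = 2.84e-20 by edgeR) was highest in Olfr60, with 2.86, 2.93, 3.68 and 2.01 in mice 1 to 4, and lowest in Olfr552, with 0, 0, 0.260 and 0.261, and its medians were 1.34 on the ventral and 0.732 on the dorsal side. Kcnk10 (F = 3.85, adjusted p = 3.42e-23 by edgeR) reached 2.03 ± 0.986 in Olfr11 and had no UMI in Olfr741, the population second highest for Kcnmb3. Cacnb3 spanned 1.63 ± 0.393 in Olfr455 to 6.48 ± 1.89 in Olfr586 (F = 2.96, adjusted p = 4.01e-14 by edgeR). Kcnc4, the most abundant potassium channel gene, differed by less, from 3.02 in Olfr972 to 7.49 in Olfr1197 (F = 1.89, adjusted p = 3.02e-05 by edgeR). Kcna2, Kcnab2, Cacna2d1, Kcna5, Kcnq1ot1, Kcnh4 and Kcns3 passed with F between 1.44 and 1.88. Kcnh4 and Kcns3 lost their call without mouse 1, Kcnq1ot1 without mouse 2, Kcna5, Kcnh4 and Kcnq1ot1 without mouse 3, and Kcna2, Kcnh4 and Kcns3 without mouse 4. Thinning neurons to 5000 UMIs dropped every neuron with fewer and left 15 populations. There 2 of 6 members and 26.5% of 1166 genes differed, and Scn3b, Kcnc4 and Kcnq1ot1 no longer passed. The population ranked first also varied with the mice. Whichever mouse was left out, 3 of the 16 called members, Scn9a among them, kept their highest population and 6 their lowest. Of these 6, Kcnmb3 and Kcnk10 had no UMI in their lowest population, so leaving out a mouse could not change its place.

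Without the filter the silent subunit gene Kcng1 had the second largest F of the members (F = 7.59, adjusted p = 9.94e-97 by edgeR). It had 2.83, 1.42, 2.00 and 2.49 in mice 1 to 4 in Olfr166, which also led for Kcnmb3 by the mean of the mice, and no UMI in 13 populations. Further members called in that fit included Cacna1a, Cacna1b, Cacng4, Kcna1, Kcna6, Kcnh3, Kcnn2 and Scn3a. Cacna1b was highest in Olfr972, the population that led for Scn9a, at 2.06 ± 0.949.

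The ventral side was also taken alone. Among its 74 populations, 13 of 19 members differed (68.4%), against 44.5% of 1911 genes. The filter admits members through the populations where they are high here too. Without the filter 22 of 62 members differed, against 1742 of 13344 genes. Kcnmb3 (F = 10.6), Scn4b (F = 4.56), Scn3b (F = 4.07), Scn9a (F = 3.53) and Hcn2 (F = 2.91) remained the leading members, while Kcna2, Kcna5 and Kcns3 no longer passed, with adjusted p from 0.0695 to 0.325 by edgeR. Kcnh3 passed the filter and the test here and was below the filter among all 98, while Kcnk10 was below the filter here.

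Across the 98 population means, Kcnmb3 followed S100a5, a calcium-binding protein gene whose level in these neurons is known to depend on activity, with Spearman's rho = 0.73. Scn4b (0.69), Kcng1 (0.64) and Kcnn2 (0.61) had the same sign and Kcnk10 (-0.64), Cacnb3 (-0.62) and Scn9a (-0.55) the opposite one. Hcn2 was near 0 for S100a5 (-0.02) and followed the ventral marker Nfix (0.56). Among the 1979 genes tested, the profiles most like that of Kcnmb3 were Lrrc3b (0.88), Epha5 (0.83) and Kirrel2 (0.82), of which Epha5 is an axon guidance receptor and Kirrel2 an adhesion protein, and the most opposed was the guidance ligand gene Efna3 (-0.78). The nearest to Scn3b were Slc6a6 (0.68), Ncam1 (0.59) and Tsc22d1 (0.55), and to Scn4b Pcp4l1 (0.73), Slc24a2 (0.71) and Sorl1 (0.69). Among members, Kcng1 was most like Kcnmb3 (0.79), followed by Kcnn2 (0.71) and Scn4b (0.64), and Kcnk10 was opposed (-0.68). These correlations are descriptions, since the populations share the 4 libraries and differ in neuron number and depth.

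Odorant receptors fall into class I, encoded in 1 cluster on chromosome 7 (chr7:102476579-105369355 on GRCm38), and class II. Of the identified mature neurons 1071 had a class I and 8641 a class II receptor, and 99 of the 106 class I populations lay on the dorsal side. Of 56 members tested by edgeR, 26 differed (46.4%), 13 higher and 13 lower in class I, against 18.6% of 11835 genes in either direction, 9.73% higher and 8.91% lower. The other 87 members were below the filter. Of the 26, 19 reached the level of the filter (0.0179 UMIs per 10000) in all 4 mice of both classes. Cacna2d3 and Kcnn3 did so in class I alone and Kcna1, Cacng4, Kcnh6, Cacna1a and Kcnq1 in class II alone, and since these 7 passed through the class where they were higher, their calls add no support to the count. Without the filter 28 of 74 members differed, against 13.5% of 16264 genes. The mouse was a block in this fit, and 16 members passed without it, against 9.01% of all genes. Thinning neurons to 5000 UMIs left out those with fewer. It kept 1719 of 2690, 861 of 2342, 1311 of 1759 and 658 of 3000 identified neurons in mice 1 to 4. In this fit 14 of 49 members passed, against 9.86% of 9898 genes.

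Scn3b was the clearest of the abundant members that were higher in class I, with 2.59, 3.31, 3.22 and 3.14 UMIs per 10000 in class I and 1.70, 2.07, 2.15 and 2.08 in class II neurons of mice 1 to 4 (log2 change 0.67 ± 0.04 SE, adjusted p = 6.88e-28 by edgeR). Cacnb3 had 4.68, 5.05, 4.61 and 4.72 against 4.10, 4.11, 4.05 and 4.05 (0.28 ± 0.04, adjusted p = 1.28e-10 by edgeR). For both genes the classes did not overlap. Other abundant members were also higher, Kcnk10 by 0.45 ± 0.07, Kcns3 by 0.36 ± 0.06, Kcnmb2 by 0.33 ± 0.05, Kcnj2 by 0.29 ± 0.09 and Kcna2 by 0.16 ± 0.05 on the log2 scale. Other members had low levels. Cacna2d3, an alpha2delta subunit, had 0.0250, 0.0821, 0.0206 and 0.0607 in class I neurons of mice 1 to 4 and 0.00152, 0, 0 and 0.00178 in class II, from 23 and 4 UMIs. Kcnb2 had 0.0850, 0.128, 0.144 and 0.0506 against 0.0281, 0.0226, 0.0249 and 0.0196 (2.11 ± 0.27, adjusted p = 1.02e-10 by edgeR), and Cacna1c and Kcnk12 were higher by 1.27 ± 0.31 and 0.99 ± 0.33. Kcnn3 had 0.0487 ± 0.0162 in class I and 0.0175 ± 0.00292 in class II.

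**Figure D5:**
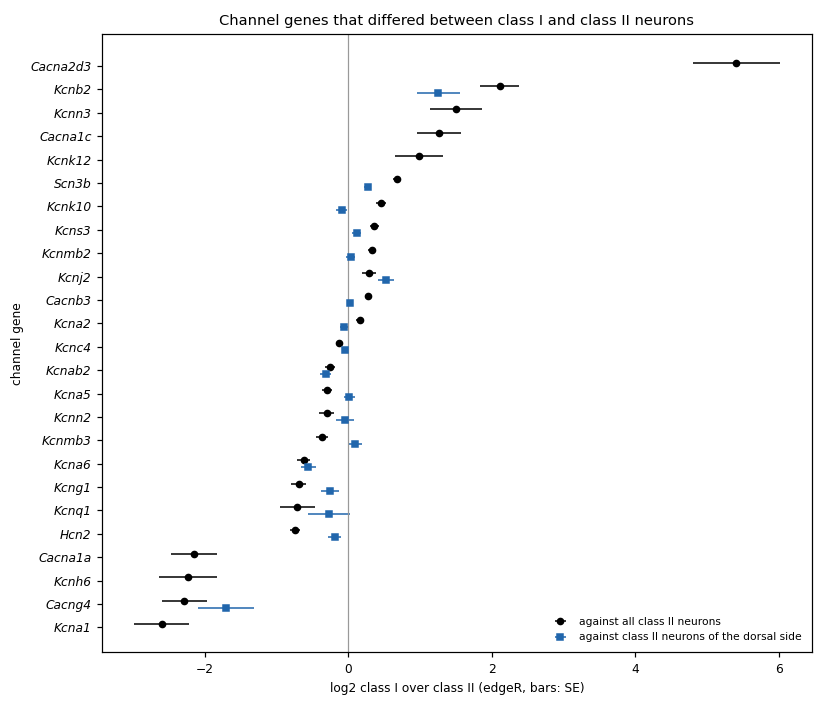
Log2 change of class I over class II neurons for channel genes that differed (edgeR, points with SE), against all class II neurons in black and against class II neurons of the dorsal side in blue, where the gene could be tested. Hcn2 moves from -0.74 to -0.19 and Kcnk10, Kcnmb3, Kcna2 and Kcna5 change side, while Scn3b, Kcna6, Cacng4 and Kcnb2 stay on theirs. The 7 genes that reached the level of the filter in 1 class alone against all class II neurons are included. Against the dorsal side, Cacng4 also passed through class II, and Kcnb2 at least in part through class I.

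Among the 13 lower members, Hcn2 had 0.645, 0.821, 0.728 and 0.769 in class I and 1.09, 1.44, 1.28 and 1.39 in class II neurons of mice 1 to 4 (log2 change -0.74 ± 0.07, adjusted p = 1.04e-16 by edgeR), with no overlap. Kcna6 had 0.490, 0.429, 0.460 and 0.506 against 0.685, 0.747, 0.798 and 0.849 (-0.62 ± 0.09, adjusted p = 6.79e-09 by edgeR) and Kcng1 0.335 ± 0.0600 against 0.586 ± 0.0951 (-0.69 ± 0.10). Kcna1, Cacng4, Kcnh6 and Cacna1a, which passed the filter through class II, each had 8 to 13 UMIs in class I neurons and 314 to 522 in class II. Kcna1 had 0.0155 ± 0.0103 in class I and 0.0969 ± 0.0227 in class II. Kcnmb3, Kcnn2, Kcna5, Kcnab2 and Kcnc4 changed by -0.36 to -0.13. Scn9a, Kcnma1, Cacna2d1 and Scn4b did not pass, with log2 changes of -0.01 ± 0.03, 0.03 ± 0.05, 0.01 ± 0.06 and -0.03 ± 0.06. Kcnn2 lost its call without any 1 of the mice. Calls that were lost when the mice named were left out in turn included those of Kcna2 (mouse 1, 3 or 4), Kcnk12 and Kcnq1 (mouse 2, 3 or 4), Cacna1c (mouse 2), Kcnj2 (mouse 3 or 4) and Kcnc4 (mouse 3).

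Class and side coincide to a large degree, so class I was also compared with the class II neurons of the 273 dorsal populations. Of 46 members 10 differed (21.7%), against 7.17% of 9868 genes in either direction, and 6 of them were among the 26. In this comparison 3 members were higher and 7 lower in class I, against 4.16% and 3.01% of all genes. Scn3b kept a smaller difference (0.27 ± 0.05, adjusted p = 1.08e-05 by edgeR), Kcnj2 a larger one (0.53 ± 0.11, adjusted p = 2.11e-04 by edgeR), and Kcna6 (-0.55 ± 0.10, adjusted p = 9.54e-06 by edgeR), Cacng4 (-1.70 ± 0.39), Kcnb2 (1.25 ± 0.30) and Kcnab2 (-0.31 ± 0.07) kept their direction. Of these, Cacng4 had 0.0239 ± 0.00959 in class I and 0.0805 ± 0.0163 in dorsal class II neurons. It passed the filter through class II, since Kcnn3, at 0.0487 ± 0.0162 in class I, was below the filter here. Kcnb2 had 0.102 ± 0.0424 in class I neurons. In dorsal class II neurons it was at 0.0440 ± 0.0101, below the level at which Kcnn3 failed. It therefore passed at least in part through class I. The calls of Cacng4 and Kcnb2 add no support to the count of 10. Hcn2 (-0.19 ± 0.09, adjusted p = 0.215 by edgeR) and Cacnb3 (0.03 ± 0.04, adjusted p = 0.802 by edgeR) no longer passed. Scn9a, which was not called against all class II neurons, was lower in class I than in dorsal class II neurons (-0.22 ± 0.04, adjusted p = 9.02e-08 by edgeR), and Cacna1b, Kcnh4 and Kcnip4 were the other 3 called here alone. Cacna2d3, Kcna1, Kcnh6 and Cacna1a were below the filter in this comparison.

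The transduction and ion transport genes that work beside these channels were examined in the same fits. Of a list of 30, 17 could be tested among populations and 16 differed, against 52.0% of all genes tested. The 6 with the largest F were Stoml3 (39.7), a membrane protein of the cilia, Calm2 (13.1), which encodes calmodulin, the cyclic nucleotide-gated channel gene Cnga2 (8.63), the G protein subunit genes Gng13 (8.57) and Gnal (7.47), and the chloride channel gene Ano2 (8.46). Between the classes 14 of 20 differed, 6 higher and 8 lower in class I, against 18.6% of all genes in either direction, 9.73% higher and 8.91% lower. The sodium pump gene Atp1b1, the chloride transporter gene Slc12a2 and Calm2 were higher in class I, by 0.29, 0.54 and 0.47 on the log2 scale, and Stoml3 (-0.40) and Cnga2 (-0.25) lower.

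Counting limits bear on some members. The gene bodies of Scn9a, Cacna2d1, Cacna1d, Kcnk10, Kcnmb2, Cacnb2, Kcnip4, Kcnb2, Kcnk2 and Kcnq1, among others, overlap another annotated gene on the same strand, with which reads could be shared or lost, and Kcnmb4 and Kcnq1 lie opposite their antisense partners Kcnmb4os2 and Kcnq1ot1. In a sum over a cell type, more expressing cells and more RNA per cell cannot be told apart.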

How the data were processed

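Main olfactory epithelium of 4 mice was profiled by droplet sequencing of transcript 3′ ends (10x, v3.1 chemistry). Per the labels, the authors aligned reads to GRCm38 with Cell Ranger 6.0.1 (names from the submitters' processing notes) and deposited UMI counts per gene and cell as raw whole numbers, with the cell types, neuron clusters and receptor identity of each cell. These assignments were used as deposited. From the counts, sums per mouse and type, cluster or receptor population were computed with scipy 1.17.1. Libraries held 23157467 to 32382702 UMIs, and the shallowest types (Mv1 and HBC1) give the least precise levels.

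Populations (at least 20 neurons, at least 3 per mouse) and receptor classes were tested with edgeR 4.0.16 (R 4.3.3), glmQLFit and glmQLFTest with TMM scaling, filterByExpr, the mouse as a block and an adjusted p threshold of 0.05. Dispersion was the one that glmQLFit estimates itself. The mouse pairs the groups because both come from the same animal. The fits were tested on simulated data. Alternatives were limma 3.58.1, DESeq2 1.42.0, no filter, thinning to 5000 UMIs (neurons with fewer left out) and leaving out a mouse. Scrublet, run in scanpy 1.11.5, called 0.0351% to 0.600% of barcodes, so the 4% with the highest scores were left out as an alternative. Per the study's methods, the authors left neurons with more than 1 receptor above a cutoff without a receptor identity, as possible multiplets. No doublet removal for the other cells is given in the sources used here.

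Genes named were the 15 highest members in mOSN, the 3 highest in each other type, up to 15 type-specific members (0.2 or more and 4-fold above every other type), members called among populations or between classes (the 10 largest changes each way), up to 10 with the largest ratio between clusters, and a list of 30. Members and lists were chosen with earlier results of these data known, and other genes named were chosen after their values were seen. A count of 0 allows 3 counts. Some genes are not reported here.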

Additional observations from a re-analysis of the deposited data

Results flagged for a closer look

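Of 61 values with 4 mice that were examined for a mouse far from the others, 2 had one, and chance flags about 1 in 20 such groups. Kcnmb2 in mature neurons was 1.34 UMIs per 10000 in mouse 4, against 1.52 in each of the other mice. The summed level of all members in Mv1 was 18.6 in mouse 2, against 11.8 to 12.3 in the others. The Mv1 type held 26 cells in mouse 2, and the part of cell number in this value was not tested.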

How the results depend on the processing

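Among receptor populations 16 members were called, beside 52.0% of all genes tested. The count was 26 without a filter on low counts (beside 14.1% of all genes). It was 2 (of 6 that could be tested, beside 26.5% of all genes) after thinning to 5000 UMIs. Thinning left out neurons with fewer UMIs, left 15 populations and ended the calls of Scn3b, Kcnc4 and Kcnq1ot1. At least 5 neurons in each mouse ended those of Kcnab2, Kcnq1ot1 and Kcns3. The count was 16 without the mouse as a block, beside 934 of 1979 genes. It was 15 to 17 when a mouse was left out, beside 826 to 907 of the 1994 to 2140 genes tested. Between the classes 26 members were called (beside 18.6% of all genes), and 16 without the block and 14 after thinning (beside 9.01% and 9.86%). Against class II neurons of the dorsal side the count was 10 (beside 7.17%). It was 20 to 25 when a mouse was left out, beside 1562 to 1800 of the 11819 to 11919 genes tested. Against the dorsal side, Kcnmb3 (log2 change 0.0958), Kcnk10 (-0.0914), Kcna2 (-0.0519) and Kcna5 (0.0148) had the opposite direction. The members lower in mOSN than in iOSN1 numbered 7 (beside 11.5% of all genes), or 12 with a lowest level of 0.05, for which no share over all genes is given. Leaving out a mouse gave 21 to 22 higher and 7 to 8 lower members, 39 to 40 members at 0.1 or more in mOSN and a summed level of 47.0 to 49.3. For single members, 175 of 196 population values kept their side of the threshold under the alternatives and 21 lost it, and 210 of 263 class values kept it, 49 lost it and 4 turned. Of 350 levels, 335 moved by less than 1 SD. The comparison of ventral populations and the splits of GBC and HBC2 were chosen after seeing the data. Among populations 124 members were below the filter, and 78 could not be tested without it. The part of depth in this was not tested. Where no cause is named, the cause was not tested.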
